A study of Mus musculus with 3 samples.

Results

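Tight junction genes of the epithelium, 6 in number, were followed through palatal seam formation: the claudins Cldn3, Cldn4, Cldn6 and Cldn7, the membrane protein occludin (Ocln) and the scaffold protein Tjp1, also called zonula occludens 1. They were taken by gene symbol, as every probe set that the array annotation assigns to 1 of these genes, which gave 8 probe sets for 6 of the 8251 genes on the array. RNA came from medial edge epithelium, the cell layer at the tips of the palatal shelves, dissected from CF-1 mouse embryos of ED13.5 (embryonic day) with the enzyme Dispase II. At 0 h the epithelium was unfused, with no culture named in its labels, at 12 h it was fused after the shelves had lain together in culture, and at 24 h it was fused and labelled as undergoing epithelial-mesenchymal transformation. No mutation or drug is named for any group. Each time point had 1 array, so no value below has a replicate error and no test was possible. Fusion and time in culture cannot be told apart.

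Tight junctions seal the space between neighbouring epithelial cells at the apical end of their lateral sides. Claudins form the strands that meet across this space and set which ions pass, occludin lies within the same strands, and Tjp1 sits beneath the membrane, where its PDZ domains hold the tails of claudins and tie them to actin. When epithelial cells take on mesenchymal character these junctions are typically dismantled, and claudin and occludin genes are known targets of repression by factors of the Snail and Zeb families.

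Signals are linear intensities, scaled so that the arrays share 1 trimmed mean, and a scaled signal of 13.53 served as the floor below which values have no order. A ratio against an array at the floor is a bound and is written as at least N-fold. The scale factors were 0.676, 1.09 and 1.36 for the arrays of 0 h, 12 h and 24 h, and values below are given in that order. Signals 3′ and 5′ of the Gapdh control transcript stood in ratios of 0.828, 14.9 and 12.6, and those of Actb in ratios of 1.02, 11.9 and 2.97, so the 0 h array also differed from the others in this measure of RNA quality. Its part in the ratios below was not tested. As a gauge of error, log2 ratios of probe sets of the same gene scattered about their gene's mean with an SD of 1.24 between 0 h and 12 h, over 672 genes. The same SD was 0.82 between 12 h and 24 h, over 687 genes, and 1.07 between 0 h and 24 h, over 748 genes. This SD also holds real differences between transcripts, and it replaces no replicate.

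The labelled tissue was checked against marker lists. Of 11 oral epithelium markers on the array, 8, 7 and 7 exceeded the floor in time order, with summed signals of 779, 1515 and 1273. The keratins Krt5, Krt14 and Krt15 of basal layers were at the floor on all 3 arrays. Cdh1, Trp63, Epcam, Perp and the simple keratins Krt8, Krt18 and Krt19 were above it on all 3. Sfn had 131, 2.51 and 9.08, so it was lower than at 0 h by at least 9.71-fold at 12 h and at 24 h. Of 10 periderm markers, 7, 8 and 8 were above the floor, with summed signals of 2072, 4052 and 3605. For 12 h over 0 h, 4 of these were past 2-fold upward and 2 downward (median log2 ratio 0.65). Of all genes with a ratio, 17.7% were past 2-fold upward and 27.3% downward in this comparison. Of 13 palate mesenchyme markers, 13, 10 and 11 were above the floor, with summed signals of 4048, 7112 and 8467, so the libraries also held RNA of genes typical of mesenchyme. The sums do not speak for each marker: for 12 h over 0 h, 3 epithelial markers were past 2-fold upward and 1 downward (median log2 ratio -0.06), and 5 mesenchymal markers upward and 5 downward (median -0.24). Of 5 red blood cell markers, 5 were past 2-fold downward in that comparison (median -2.11), with summed signals of 6458, 1575 and 1496, so they were lower where the 4 claudins were lower, and their part in the claudin values was not tested. In such bulk RNA fewer epithelial cells and less RNA per cell cannot be told apart.

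Each of the 4 claudins had its lowest signal at 12 h by its reported probe set, and Tjp1 its highest. All genes leaned the same way as the claudins at this scaling, with median log2 ratios of -0.21 for 12 h over 0 h and 0.17 for 24 h over 12 h. The share of all genes lowest at 12 h was not counted. Cldn4, a claudin of tight epithelia and a receptor of Clostridium enterotoxin, had scaled signals of 206 before culture, 12.8 once fused (12 h) and 82.6 when transforming (24 h). The 12 h value lay just below the floor, between clearly higher ones. From 0 h to 12 h Cldn4 was therefore lower by at least 15.2-fold, and from 12 h to 24 h it was higher by at least 6.10-fold. Between 0 h and 24 h, both above the floor, it was 2.50-fold lower.

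Cldn6, a claudin of embryonic epithelia, gave 57.3, 11.3 and 29.4 in time order. Only its 12 h signal was at the floor, which makes it lower than at 0 h by at least 4.24-fold and lower than at 24 h by at least 2.18-fold. Its 24 h signal was 1.95-fold lower than that at 0 h, short of the 2-fold rule used for counting.

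Cldn7, which in many epithelia also lies along the lateral membrane, gave 24.95, 2.29 and 54.6. Of the 4 claudins it alone had its highest signal at 24 h, at 2.19-fold that of 0 h. Because the 0 h signal was itself less than 2-fold above the floor, the lower signal at 12 h could be stated only as at least 1.84-fold. The 24 h signal was higher than that at 12 h by at least 4.04-fold. Its probe set, 99561_f_at, carries the suffix by which the array maker marks sets that can detect several members of a gene family.

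Cldn3, a close relative of Cldn4, was measured above the floor on all 3 arrays by the probe set 94493_at, with signals of 30.2, 15.7 and 22.1. The order of the time points was that of Cldn4 and Cldn6, but the differences were small: 1.92-fold lower at 12 h than before culture, 1.41-fold higher from there to 24 h, and 1.37-fold lower over the whole course. Its other probe set, 162315_f_at, was at the floor on all 3 arrays (1.08, 3.16 and 6.91) and gave no ratio. Cldn3 and Cldn4 are neighbours on chromosome 5, with 0 protein-coding genes between them in the RefSeq gene table.

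Ocln, a membrane protein of the strands that is not itself needed to form them, was above the floor on 1 array, that of 12 h, with signals of 0.473, 22.1 and 9.49. At 12 h it exceeded either other time point by at least 1.64-fold, and the 0 h and 24 h arrays, both at the floor, allow no ratio. A single array less than 2-fold above the floor limits how firmly a direction can be stated.

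Tjp1, the scaffold, gave 122, 827 and 535 by the probe set 99935_at, each several times the floor. Its 12 h signal was 6.76-fold that of 0 h, its 24 h signal was 1.55-fold lower than that peak, and over the whole course it was 4.37-fold higher. The other probe set, 162298_r_at, had 2.64, 1.31 and 0.542, at the floor on all 3 arrays, so the difference rests on 1 probe set.

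**Figure D1:**
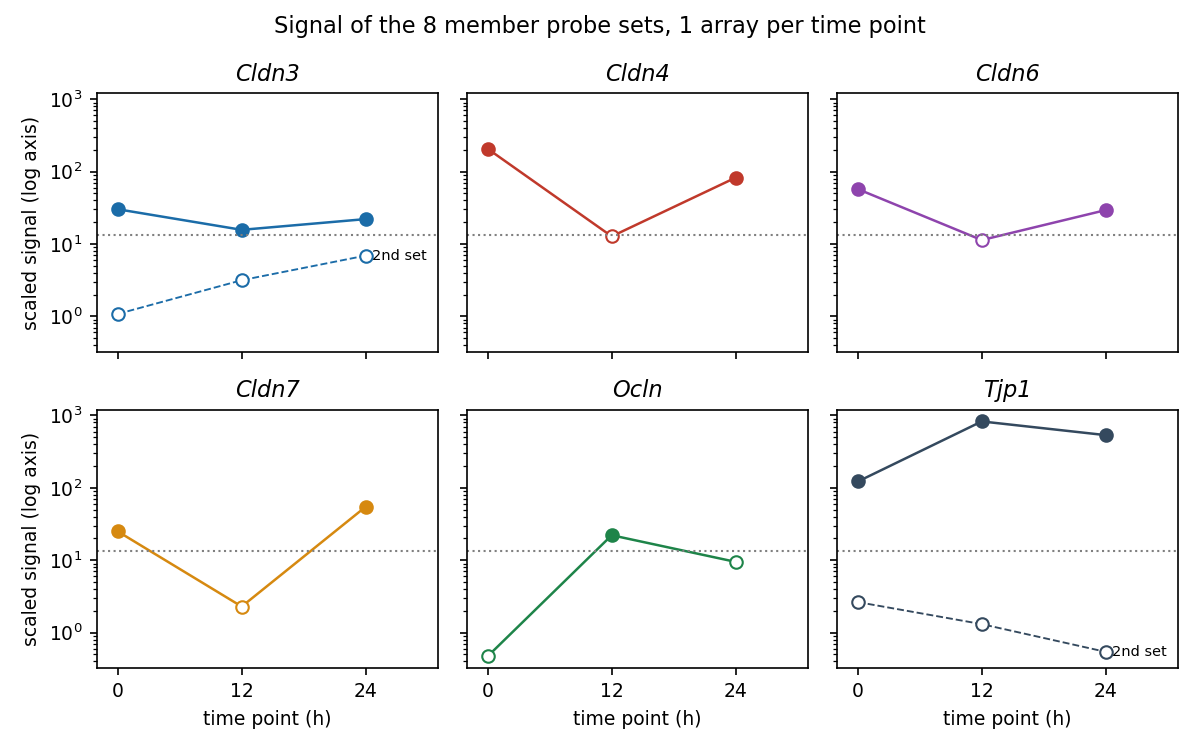
Scaled signal on a log axis against time point for the 8 probe sets of the 6 genes, with 1 array per point; filled points lie above the floor of 13.53 (dotted line), open points at or below it, and dashed lines mark the second probe set of Cldn3 and Tjp1. Cldn4, Cldn6 and Cldn7 are at the floor at 12 h only, and the first probe set of Tjp1 is highest at 12 h, at 827.

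The position of a probe set among all 12422 non-control probe sets of its array needs no scaling. Cldn4 stood at percentiles 90.8, 41.7 and 77.9 in time order. For Cldn6 the percentiles were 67.3, 39.5 and 55.4, for Cldn7 49.2, 12.9 and 69.5, and for the measured Cldn3 set 53.4, 46.0 and 49.1. Tjp1 stood at 83.3, 97.5 and 96.8, and Ocln at 1.21, 53.6 and 32.4. For Cldn3, Cldn4, Cldn6, Cldn7 and Tjp1 the order of the time points was the same on this scale as in scaled signals.

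For 12 h over 0 h, the comparison of fused with unfused epithelium, 1 of the 6 genes reached 2-fold upward (Tjp1) and 2 reached it downward (Cldn4 and Cldn6). Among 6379 genes with a ratio, 17.7% reached 2-fold upward and 27.3% reached it downward. The counts for the 6 genes are close to these shares, so they set the group apart in neither direction. The median log2 ratio was -0.91 for the 6 genes, bounds included, and -0.21 for all genes. The log2 ratios of Tjp1 (2.76), Cldn4 (at most -3.93) and Cldn6 (at most -2.08) were larger than the SD between probe sets. For Cldn4 and Cldn6, at the floor at 12 h, this SD is not a measure of error. That of Cldn3 (-0.94) was smaller. The bounds of Cldn7 (at most -0.88) and Ocln (at least 0.71) fell short of the SD, so these ratios may lie on either side of it.

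For 24 h over 12 h, the step from fused to transforming epithelium, 3 of the 6 genes reached 2-fold upward (Cldn4, Cldn7 and Cldn6) and 0 downward. Of all 6141 genes with a ratio, 18.8% did so upward and 12.0% downward. With log2 bounds of 2.61, 2.01 and 1.12, Cldn4, Cldn7 and Cldn6 were past the SD between probe sets. All of them were at the floor at 12 h, where this SD is not a measure of error. Cldn3 (0.49) and Tjp1 (-0.63) were within it. The bound of Ocln (at most -0.71) fell short of the SD, so its ratio may lie on either side. The median log2 ratio was 0.81 for the 6 genes and 0.17 for all genes. This comparison shares the 12 h array with the one before, so 1 low value there enters both.

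For 24 h over 0 h, 5 of the 6 genes had a ratio, of which 2 reached 2-fold upward (Tjp1 and Cldn7) and 1 downward (Cldn4). Over 6392 genes, 14.5% were past 2-fold upward and 17.7% downward. The log2 ratios were 2.13 for Tjp1, 1.13 for Cldn7, -0.45 for Cldn3, -0.96 for Cldn6 and -1.32 for Cldn4, with a median of -0.45 beside -0.08 for all genes. Cldn7 and Cldn4 thus lay on opposite sides, each only slightly past the SD of 1.07.

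**Figure D2:**
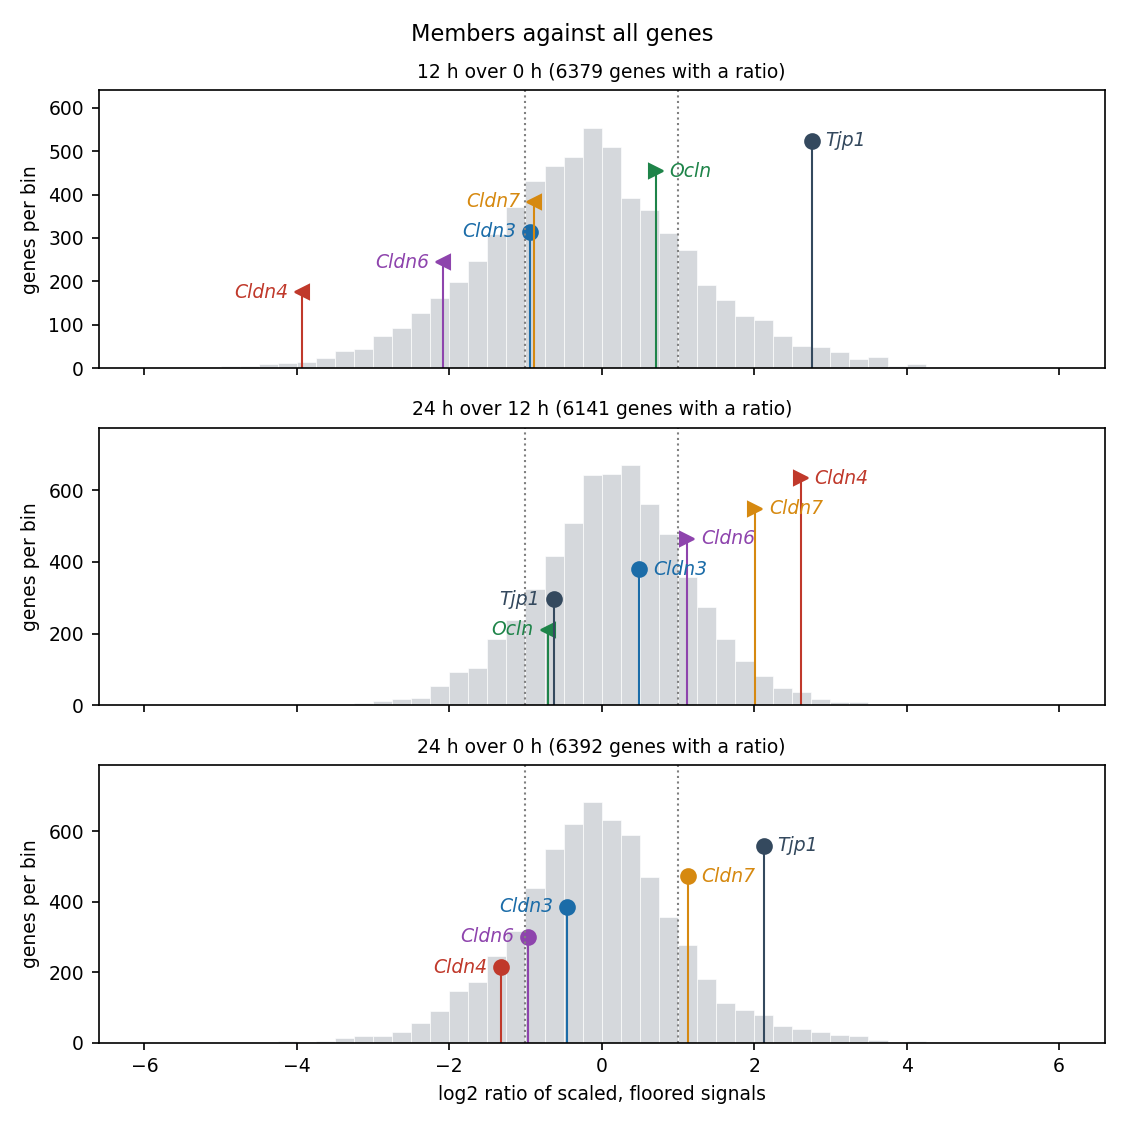
Histograms of the log2 ratio over all genes with a ratio (grey, genes per bin) in the 3 comparisons, with the 6 genes as stems: circles are measured on both arrays, triangles are bounds pointing away from 0, and dotted lines mark 2-fold. Cldn4 lies in the lower tail for 12 h over 0 h and Tjp1 in the upper, and the claudins lie right of 0 for 24 h over 12 h.

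Scaling sets how many genes count as higher or lower. With values as deposited, 9.06% of all genes were past 2-fold upward and 44.8% downward between 0 h and 12 h, 12.0% and 18.5% between 12 h and 24 h, and 4.50% and 49.3% between 0 h and 24 h. With arrays centred on the median these shares were 26.2% and 18.4%, 13.0% and 17.8%, and 17.7% and 14.2%. The median log2 ratio of all genes for 12 h over 0 h ranged from -0.83 with values as deposited to 0.18 after median centring. Under each of these scalings and after quantile normalization the ratios of Cldn3, Cldn4, Cldn6, Cldn7, Ocln and Tjp1 had the same sign as reported above. With values as deposited, Cldn7 lost its 2-fold difference for 24 h over 0 h (log2 ratio 0.13) and Cldn6 lost its own for 24 h over 12 h (log2 bound 0.71). Under that setting Cldn3 and Cldn7 passed 2-fold downward for 12 h over 0 h, as did Cldn3 and Cldn6 for 24 h over 0 h.

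**Figure D3:**
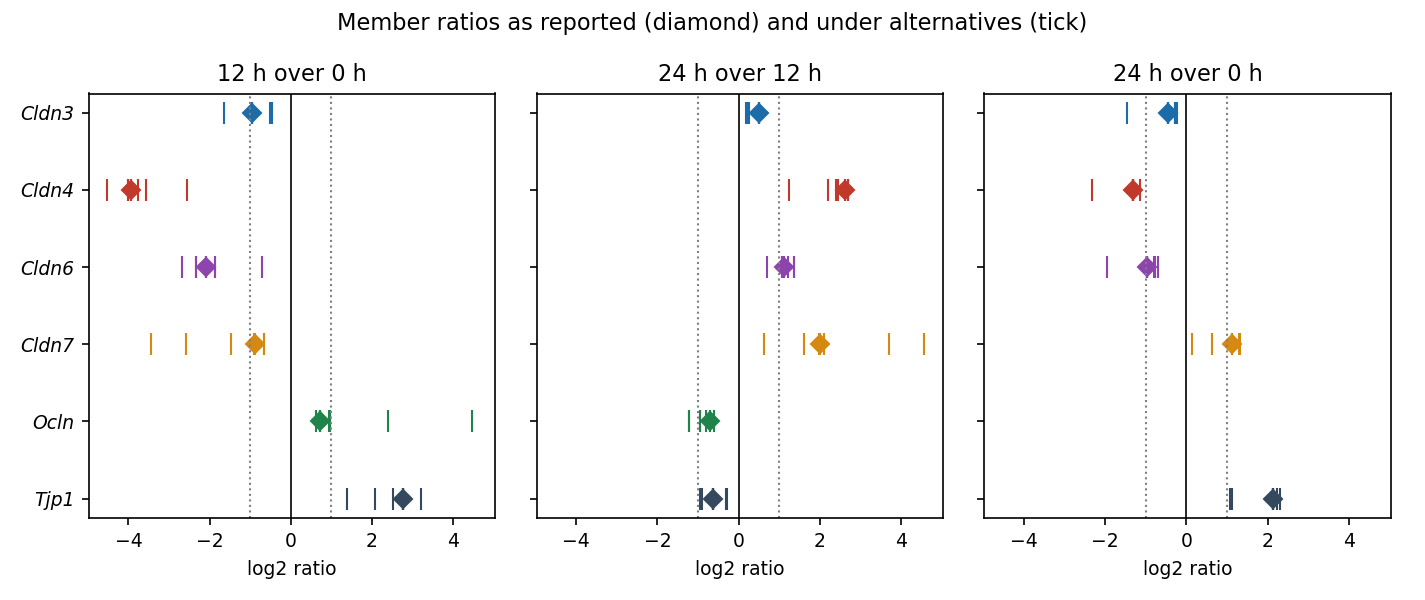
Log2 ratios of the 6 genes in the 3 comparisons, for each ratio reported: as reported (diamonds) and under each alternative that gave a ratio (ticks), with dotted lines at 2-fold. No gene drawn crosses 0 in any panel, and the spread for Cldn7 and Ocln is wide because their bounds move with the floor. Ocln has no reported ratio for 24 h over 0 h and is not drawn there, although lower floors gave it a ratio.

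Since the 4 claudins had their lowest signals on the same array, the sequence before their start sites is shown, 5′ to 3′ and ending just before the annotated gene, from RefSeq on GRCm38.p6. Whether that shared course sets claudins apart was not tested, because the median of all genes lay on the same side in both steps. All 6 genes had such a sequence in the table. Capitals mark the E-box CAGGTG or its reverse complement CACCTG, the core that Snail and Zeb factors bind.
Cldn3, chr5:134985964-134986213, strand +: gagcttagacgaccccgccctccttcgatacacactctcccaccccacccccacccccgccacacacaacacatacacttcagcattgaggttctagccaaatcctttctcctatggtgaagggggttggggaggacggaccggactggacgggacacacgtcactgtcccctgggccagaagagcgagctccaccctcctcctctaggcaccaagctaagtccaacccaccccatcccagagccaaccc
Cldn4, chr5:134946935-134947184, strand -: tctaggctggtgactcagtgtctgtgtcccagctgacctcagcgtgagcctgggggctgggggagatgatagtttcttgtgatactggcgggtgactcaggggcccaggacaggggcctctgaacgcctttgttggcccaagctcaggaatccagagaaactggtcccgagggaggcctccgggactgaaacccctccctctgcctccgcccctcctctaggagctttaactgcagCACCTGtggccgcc
Cldn6, chr17:23679115-23679347, strand +: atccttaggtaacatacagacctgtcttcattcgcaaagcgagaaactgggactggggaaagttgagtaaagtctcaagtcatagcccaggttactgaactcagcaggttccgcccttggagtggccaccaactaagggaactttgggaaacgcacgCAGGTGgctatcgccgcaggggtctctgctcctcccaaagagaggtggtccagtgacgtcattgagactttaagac
Cldn7, chr11:69964529-69964778, strand +: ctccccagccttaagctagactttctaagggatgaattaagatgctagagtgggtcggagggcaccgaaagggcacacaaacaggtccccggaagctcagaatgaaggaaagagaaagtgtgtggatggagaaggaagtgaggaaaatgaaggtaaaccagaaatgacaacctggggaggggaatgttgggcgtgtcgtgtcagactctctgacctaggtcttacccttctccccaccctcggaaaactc

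In the 250 bases before the first listed start site, the E-box was found in Cldn4, where it begins 14 bases before the start, and in Cldn6, 93 bases before it, and it was absent from these stretches of Cldn3, Cldn7, Ocln and Tjp1. For Cldn6 the printed stretch is 233 bases long, because its last 17 bases lie inside the annotated gene. Cldn7 and Ocln each have another listed start site inside the gene, and the 250 bases before that site hold 2 E-boxes in each gene, at -97 and -57 for Cldn7 and at -213 and -68 for Ocln. Across 27025 genes, 17.1% of first start sites had this E-box within 250 bases upstream. The GC box GGGCGG, searched on both strands, was present at the first start site of Cldn3, Cldn4, Cldn6, Ocln and Tjp1, and 33.0% of the 27025 genes had it. The E-box and GC box matches did not overlap. These matches are descriptions of letters and were not tested for binding.

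Factors and proteases known to act on claudin genes or proteins were measured on the same arrays. Of 12 such genes with a ratio for 12 h over 0 h, 3 were past 2-fold upward and 2 downward. The shares of all genes were 17.7% and 27.3%. Zeb1, a repressor that binds E-boxes, had signals of 80.4, 292 and 307, so that its 12 h and 24 h signals were 3.64-fold and 3.81-fold that before culture. Its other probe set was above the floor at 24 h alone. Snai1, another such repressor, went the other way, with 51.1, 1.85 and 13.8, lower than at 0 h by at least 3.77-fold at 12 h and by 3.69-fold at 24 h. Snai2, of the same family as Snai1 and named after its values were seen, had 315, 472 and 492, and Twist1, a basic helix-loop-helix factor, had 479, 1444 and 1327. At 12 h, where the claudins were lowest, Zeb1 and Twist1 were thus more than 2-fold above 0 h, Snai2 less than 2-fold above it, and Snai1 below it. The same held at 24 h, where the 4 claudins were higher than at 12 h. A part of these factors in the claudin values was not tested. Elf3, an epithelial factor of the Ets family, had 19.3, 12.7 and 79.2, higher at 24 h than at 12 h by at least 5.85-fold. Klf4, a factor of epithelial differentiation, was 2.60-fold higher at 12 h than before culture and then 3.92-fold lower. The other Klf4 probe set was at the floor on every array. Prss8, a membrane-anchored protease, had 37.1, 15.1 and 35.5, lowest at 12 h like the claudins, but its other probe set went the other way, by at least 2.01-fold.

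Of 16 other claudins listed, 5 were on the array, 4 of them with a ratio for 12 h over 0 h. Of these 4, 0 were past 2-fold upward and 2 downward, beside 17.7% and 27.3% of all genes. Those 2 are Cldn5 and Cldn8, and neither was past 2-fold after median centring, after quantile normalization or with the floor at the 60th percentile. Cldn1 (9.87, 21.8 and 9.22) and Cldn11 (9.67, 22.5 and 16.5) were above the floor at 12 h but not at 0 h, higher by bounds of 1.61-fold and 1.66-fold that passed 2-fold with the floor at the 20th percentile and with no floor. Both are named after their values were seen. Cldn5, the main claudin of endothelium, had signals of 43.8, 19.96 and 94.6, so it was 2.19-fold lower and then 4.74-fold higher. Other endothelial genes did not follow that course: the vascular cadherin Cdh5 had 51.7, 263 and 160, and Pecam1 25.4, 66.2 and 51.8. Of 7 endothelial markers, 5, 7 and 6 were above the floor, with summed signals of 220, 477 and 447. Cldn8, a claudin of kidney tubules, was 2.43-fold below its 0 h signal at 12 h and at least 2.64-fold below it at 24 h.

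Among 6 other genes listed for membrane proteins of the junction and its apical border, 1 was past 2-fold upward and 2 downward for 12 h over 0 h. The shares of all genes were 17.7% and 27.3%. Epcam, an adhesion molecule that binds claudin 7 and stabilises it, had 38.7, 265 and 77.1. Epcam was therefore highest, 6.85-fold above 0 h, on the array where Cldn7 was at the floor. Both are RNA signals, and the link between the proteins was not tested. Crb3, which helps to set the apical membrane, had 53.6, 15.9 and 49.6, so it was 3.36-fold lower and then 3.12-fold higher. Marveld1, a MARVEL domain protein whose place at the junction was not tested, was 4.12-fold lower and then 3.05-fold higher in the same comparisons. Both were lowest at 12 h, as the 4 claudins were, but the other Crb3 probe set was at the floor on all 3 arrays.

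Of 12 proteins of the cytoplasmic plaque and the polarity complexes, 1 was past 2-fold upward and 3 downward for 12 h over 0 h. The shares of all genes were 17.7% and 27.3%. Ybx3, a Y-box protein that binds Tjp1, had 118, 265 and 200, highest at 12 h like Tjp1, at 2.25-fold above 0 h. Llgl1, a basolateral polarity protein, was 2.75-fold lower at 12 h than at 0 h. Prkcz, an atypical protein kinase C of the Par complex, was 2.32-fold lower and then 3.25-fold higher. Mpdz, a scaffold with many PDZ domains, was 3.08-fold lower at 24 h than at 0 h, but another of its probe sets gave a log2 ratio of 1.38 for that comparison.

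The other adhesive junctions gave different values. For 12 h over 0 h, 6 of 8 desmosome genes with a ratio were past 2-fold upward and 1 downward, and the list had a median log2 ratio of 2.13. Among all genes, 17.7% were past 2-fold upward and 27.3% downward in this comparison. The desmosomal cadherin Dsc2 was 18.9-fold higher, desmoplakin (Dsp) 4.73-fold higher and plakoglobin (Jup) at least 4.26-fold lower. Dsc2, Pkp1 and Pkp2 rest on probe sets with the gene family suffix; the other sets of Dsc2, Dsp and Pkp2 were at the floor on all 3 arrays, and for Pkp1 the plain set had a log2 ratio of 0.18 between 0 h and 12 h. For 24 h over 12 h, 1 desmosome gene was past 2-fold upward and 4 downward, and the median was -0.97. The shares of all genes in that step were 18.8% upward and 12.0% downward. Of 12 cadherins, catenins and nectins, 1 was past 2-fold upward and 2 downward for 12 h over 0 h, around a median of -0.04. P-cadherin (Cdh3) had 113, 30.98 and 109, and Nectin2, which adheres beside cadherins, had 123, 34.6 and 194, so both were lowest at 12 h. Another Cdh3 probe set gave a log2 ratio of 0.35 for 12 h over 0 h. Another Nectin2 probe set gave -1.03 for that comparison and 0.20 for 24 h over 12 h. Desmosome genes and the 6 tight junction genes thus had medians on opposite sides of 0 in both steps, also under the 3 other scalings. With no floor the desmosome median of the later step was -0.01. The medians of all genes, -0.21 and then 0.17, lay on the side of the 6 genes. In each step only 2 of the 6 ratios were measured on both arrays, and the rest were bounds. Without suffixed probe sets the desmosome medians were 1.26 and then -0.43, and with the mean over probe sets 1.36 and then -0.40. The difference could not be tested with 1 array per time point.

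**Figure D4:**
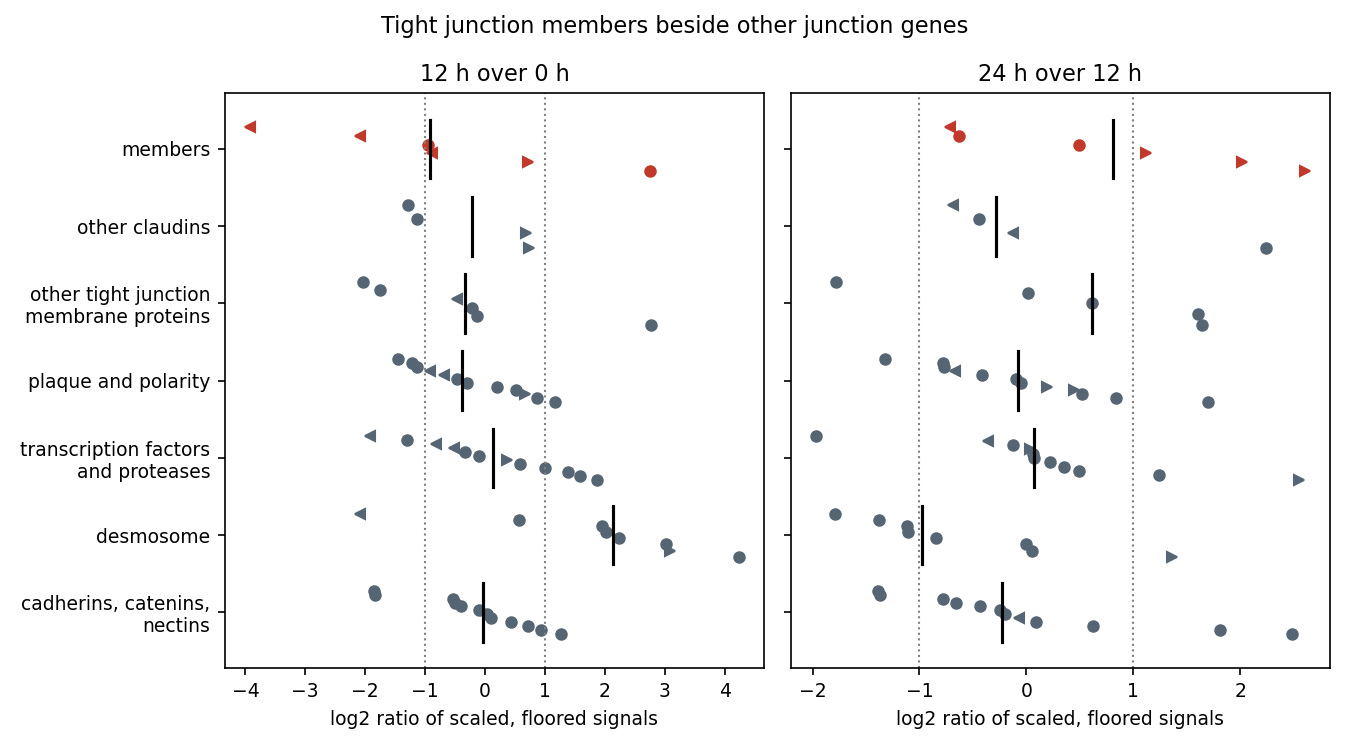
Log2 ratios for 12 h over 0 h and 24 h over 12 h, 1 symbol per gene, for the 6 genes (red) and other junction lists (grey); circles are measured on both arrays, triangles are bounds, black bars are list medians and dotted lines mark 2-fold. The desmosome median is 2.13 and then -0.97, and that of the 6 genes -0.91 and then 0.81.

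Genes with the most similar course were found by the distance between floored log2 signals over the 3 time points, each gene centred on its mean, among 6569 genes above the floor on at least 1 array. Nearest to Cldn4 were Rabac1 (distance 0.09; signals 512, 35.6 and 224) and Ppdpf (distance 0.09; 334, 20.4 and 123). Nearest to Cldn7 were Igf2, an embryonic growth factor (distance 0.02; 3087, 1684 and 6698), and the simple keratin Krt19 (distance 0.05; 70.7, 40.1 and 161). For Cldn6 they were Serpinf2 and Ahcyl1, for Cldn3 Tm2d3 and C1qa, for Ocln Dmkn and 2210016L21Rik, and for Tjp1 Ergic2 and Msr1. With 3 time points many genes share a course, and floored values make courses look alike.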

How the data were processed

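The deposited values are intensities, 1 linear signal per probe set and array, without detection calls. Per the labels' protocols, RNA was column-purified, amplified with the RiboAmp kit, biotin-labelled and hybridized to 1-colour Affymetrix arrays, and Microarray Suite 5.0 and GeneSpring 6.0 were used; the sources used here do not say whether the authors scaled the intensities. Trimmed means of the deposited signals were 93.7, 58.1 and 46.8 in time order.

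Of 12488 probe sets, 66 controls were set aside, and 10833 of the other 12422 name 1 gene. Symbols were updated by gene identifier through RefSeq (GRCm38.p6), which matched 10817. Each array was brought to the same 2% trimmed mean, floored at the pooled 40th percentile (13.53) and compared as log2 ratios. The probe set with the highest mean signal stood for its gene, and counts use a 2-fold rule. The code was checked on simulated data without noise, with differences planted only in genes far above the floor. That check does not cover signals near the floor. The members and lists were chosen with earlier results of these data known. Named junction genes are up to 4 per list and comparison with the largest ratios of at least 2-fold, and names were left out for length; defining markers and the 2 nearest genes per member are named too. Cdh5 and Pecam1 come from the marker list and were singled out after their values were seen. Python 3.11.15, numpy 2.4.6 and pandas 2.3.3 were used. Alternatives were other scalings, floors, probe set rules and a 3-fold rule. The setting called no floor kept a floor at a scaled signal of 1.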

Additional observations from a re-analysis of the deposited data

How the results depend on the processing

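None of the 143 ratios of the 6 genes recomputed under 9 alternatives had the opposite sign of a 2-fold difference. Nor had any ratio of the 27 named junction genes, whose recomputation was added after seeing the data. Ratios short of 2-fold as reported could not count as reversed. For the 6 genes, other floors, scaling from 2 arrays and other probe set rules could not change a sign. Only the other scalings could have done so, so 143 overstates the number of informative checks. The 143 leave out Ocln for 24 h over 0 h, which had no reported ratio to compare with. Counts at the 2-fold rule that differed from those reported are these, and the cause was not tested except that a higher floor or fewer probe sets leaves fewer ratios. For 12 h over 0 h, 2 genes in place of 1 were higher with the floor at the 20th percentile and with no floor, 4 in place of 2 were lower with values as deposited, 3 with the floor at the 20th percentile and with no floor, and 1 with the floor at the 60th percentile. Of all genes, 19.6% and 20.3% were higher under these settings in the order named. The shares lower were 44.8%, 28.9%, 29.8% and 23.9% in the order named. For 24 h over 12 h, 1 in place of 3 was higher with the floor at the 60th percentile and 2 with values as deposited, without suffixed probe sets and at 3-fold, and 1 in place of 0 was lower with the floor at the 20th percentile and with no floor. The shares of all genes, in the order named, were 14.9%, 12.0%, 19.7% and 7.41% higher, and 14.0% and 15.1% lower. For 24 h over 0 h, 1 in place of 2 was higher with values as deposited, with the floor at the 60th percentile, without suffixed probe sets and at 3-fold, and 3 with the floor at the 20th percentile and with no floor. In that comparison 3 in place of 1 were lower with values as deposited and 0 at 3-fold. All genes, in the order named, had shares of 4.50%, 13.2%, 13.3%, 6.63%, 16.9% and 17.9% higher, and 49.3% and 7.76% lower. Cldn7 has no ratio without suffixed probe sets, and the mean over probe sets lowers the log2 ratio of Tjp1 for 12 h over 0 h from 2.76 to 1.38. Leaving out an array leaves no comparison, and no paired analysis was possible because each time point had 1 array. The median of the 6 genes for 24 h over 0 h, -0.45 as reported, was 0.34 with the floor at the 20th percentile and with no floor, where Ocln gains a ratio. Signals at or near the floor limit all bounds: with the floor at the 60th percentile that of Cldn4 for 12 h over 0 h was 5.87-fold and that of Cldn6 1.63-fold.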
